A study of Canis lupus familiaris with 16 samples.

Results

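The loci described here carried a peak of captured methylated DNA in both lymphoma peak lists and in neither healthy list. They were chosen as the peaks of the lymphoma L list that shared at least 1 bp with a peak of the lymphoma M-H list and touched no healthy peak, neither themselves nor through the M-H peak they matched. Of the 45623 peaks in the lymphoma L list, 6641 met this rule (14.6%), and they matched 6605 distinct M-H peaks. The loci were chosen by the presence and absence of peaks, so their absence from the healthy lists is no finding, and the values below describe where they lie, how strongly they were enriched and which genes they meet.

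High-grade B-cell lymphoma, a fast-growing tumour of B lymphocytes, had been diagnosed in 5 dogs, aged 5 to 13 years and with tumour stages III to V, whose tumour cells were aspirated from swollen lymph nodes. The healthy group consisted of 3 dogs aged 2 to 7 years, whose mononuclear cells were separated from blood. The lymphoma dogs were a schnauzer, a dachshund, a golden retriever, a dog of mixed breed and a dog with no breed given, and the healthy dogs were a dog of mixed breed, a golden retriever and a standard poodle. From every dog came an L library and an M-H library, 16 libraries in all; what L and M-H mean was not given in the sources used here. The authors deposited 1 peak list for each group and label, so values of single dogs are not analysed here and no test between groups was possible. Because the same lymphoma dogs stand behind both lymphoma lists, a locus found in both was seen in the same tumours and not in independent ones.

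In mammals, methyl groups are added mainly to cytosines followed by guanine, the CpG sites. Most of the genome is depleted of CpG sites and methylated, whereas CpG islands, the dense clusters at many gene starts, are usually free of methylation, and their flanks are called shores. Gain of methylation at islands and shores of developmental and tissue-specific genes is well known in lymphoid cancers, as is methylation of silent promoters in normal cells. MethylCap-seq captures methylated fragments with a methyl-CpG-binding protein domain and sequences them, so a peak marks a methylated stretch that holds enough CpG sites to be captured.

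All 4 lists held only peaks with a fold enrichment of at least 6, so a locus without a healthy peak may still have held methylated DNA below that level. In L the lymphoma list covered 33.2 Mb with its 45623 peaks and the healthy list 26.7 Mb with 44811 peaks, so the numbers of peaks were similar. In M-H the lymphoma list covered 27.9 Mb with 34939 peaks and the healthy list 12.4 Mb with 19867 peaks. Read depth is unknown. Disease and tissue went together in every library, so tumour and lymph node cannot be told apart from healthy and blood; in such bulk samples a change in the mix of cell types and a change of methylation within a cell type cannot be told apart either. All intervals are 95% Wilson intervals over peaks or genes and cover counting error only, not the spread between dogs.

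The lymphoma-shared loci lay at gene starts, CpG islands and shores more often than lymphoma L peaks as a whole did. A promoter, taken as 1 kb either side of a transcription start, was touched by 1818 of them (27.4%, 26.3 to 28.5), against 10.3% (9.77 to 10.9) of the 11610 lymphoma L peaks found in all 4 lists and 12.2% of all lymphoma L peaks. Peaks of the lymphoma L list that were in no other list, 5571 in number, touched a promoter in 11.3% of cases. The authors' flag for a CpG island was set for 880 loci (13.3%, 12.5 to 14.1), against 2.94% of the peaks in all 4 lists and 4.46% of all lymphoma L peaks. The flag for a shore was set for 3544 loci (53.4%), against 38.6% of the peaks in all 4 lists. Loci with no island, no shore and no promoter numbered 2007 (30.2%), against 56.6% of the peaks in all 4 lists. Enhancer flags were few in each set, at 5.90% of the lymphoma-shared loci and 2.89% of the peaks in all 4 lists.

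**Figure D1:**
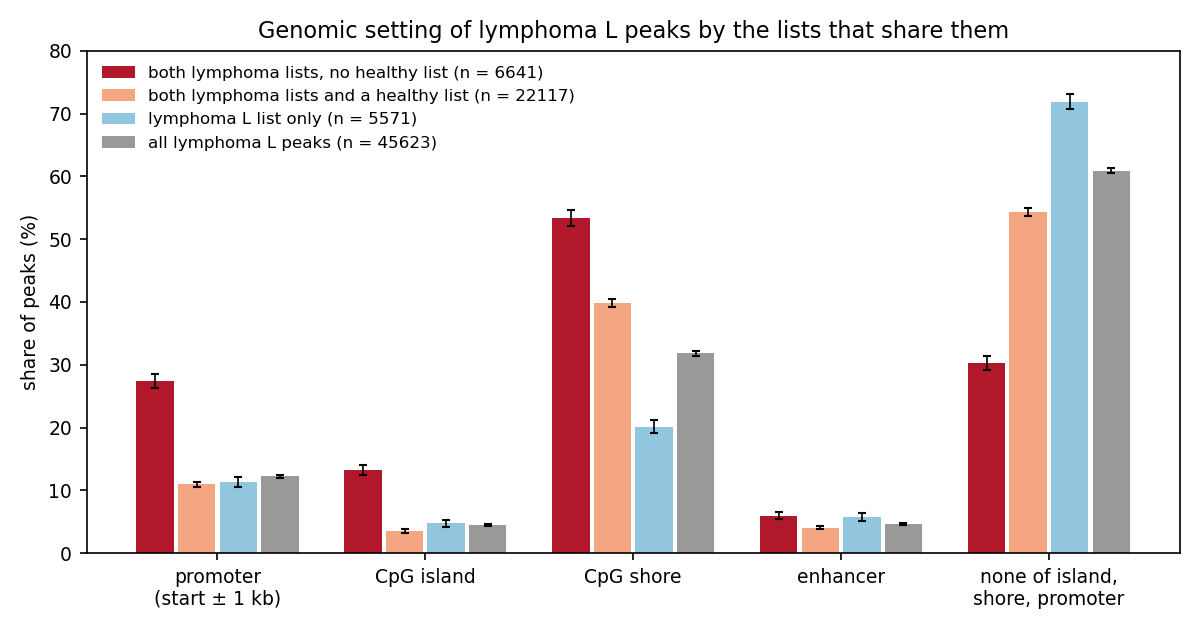
Share of lymphoma L peaks (%) with each genomic setting, for the loci in both lymphoma lists and no healthy list (leftmost bars), for peaks in both lymphoma lists and a healthy list, for peaks of the lymphoma L list only and for all lymphoma L peaks; error bars are 95% Wilson intervals over peaks. The leftmost bars are the highest at promoters (27.4%), islands (13.3%) and shores (53.4%) and the lowest where none of these is present (30.2%).

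Read the other way, 43.2% of the 2036 lymphoma L peaks with an island flag were lymphoma-shared loci without a healthy peak, as were 32.6% of the 5576 promoter peaks. Promoter peaks with an island flag reached 45.6% and those with a shore flag 34.9%. Promoter peaks with neither flag stood at 16.8%, close to the 14.6% of all lymphoma L peaks, and peaks with no island, shore or promoter stood at 7.22%. The share at promoters was thus higher with an island or shore flag than without one. Without a flag, promoter peaks (14.8 to 18.9) still stood above peaks with no island, shore or promoter (6.92 to 7.53). The genomic annotation in the files gave the same picture in other terms: 19.4% of the loci were annotated as upstream of a gene and 5.16% as 5' untranslated, against 8.45% and 1.89% of the peaks in all 4 lists. Introns held 34.7% of the loci, against 35.5% of the peaks in all 4 lists, whereas regions between genes held 27.3%, against 41.3%.

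Around the gene start, the loci piled up on the downstream side. Within the first 500 bp downstream of a start lay the midpoints of 12.03% of the lymphoma-shared loci, against 3.90% of the peaks in all 4 lists and 4.44% of all lymphoma L peaks. In the 500 bp upstream the shares were 5.00% of the loci, 2.09% of the peaks in all 4 lists and 2.24% of all lymphoma L peaks. Of the 1818 promoter loci, 1214 (66.8%) had their midpoint downstream of the nearest start and 604 (33.2%) upstream. The downstream lean was thus present in all 3 sets and was not particular to these loci.

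**Figure D2:**
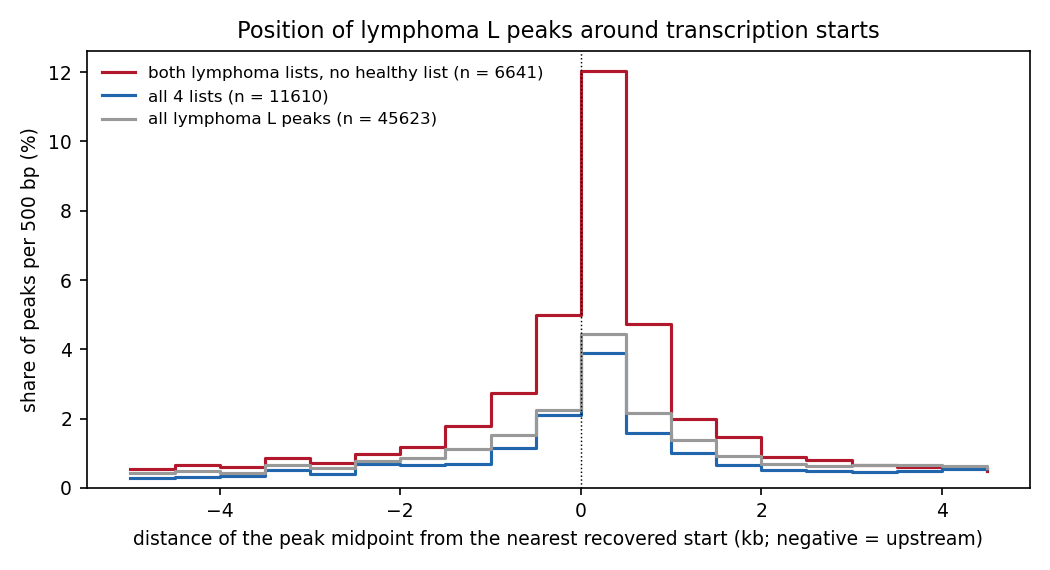
Share of peaks (%) per 500 bp of distance between the peak midpoint and the nearest recovered transcription start (kb, negative is upstream), for the loci in both lymphoma lists and no healthy list, for lymphoma L peaks in all 4 lists and for all lymphoma L peaks. All 3 curves are highest in the first 500 bp downstream, at 12.03% for the loci, 3.90% for the peaks in all 4 lists and 4.44% for all lymphoma L peaks.

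Most of the loci were of moderate enrichment. The fold enrichment is a value of the authors, a ratio to a background that the sources used here do not describe, and serves only to rank peaks within a list. In the lymphoma L list the loci reached 21.9, with a median of 8.13, against a median of 13.0 for the peaks in all 4 lists, 6.89 for the peaks in no other list and 8.92 for all lymphoma L peaks. In the lymphoma M-H list their matched peaks had a median of 9.05 and a highest value of 23.2. The median percentile within the list was 40.6 in L and 40.8 in M-H. Promoter loci ranked higher, with medians of 51.9 in L and 54.6 in M-H, and loci with no island, shore or promoter ranked lower, with medians of 34.0 and 27.6. Across the 6641 loci the L and M-H fold values had a Spearman correlation of 0.517 and a Pearson correlation of 0.596, a description over loci whose values in both lists come from the same dogs. Above percentile 75 of both lists lay 443 loci, 197 of them at promoters, and above percentile 90 of both lay 78, of which 35 were at promoters. By fold quartile of the lymphoma L list, these loci made up 17.3% of the peaks in the lowest, 18.8% and 14.7% in the middle quartiles and 7.50% in the highest.

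The loci were 722 bp long at the median, against 813 bp for the peaks in all 4 lists and 653 bp for all lymphoma L peaks. The nearest healthy peak of either list lay 9865 bp away at the median, with a range of 21 to 422513 bp. A healthy peak lay within 1 kb of 439 loci (6.61%), and within 100 bp of 10 loci. Just inside the rule were a peak upstream of AGTR1, an angiotensin receptor, with 21 bp to the nearest healthy peak, an intronic peak of ENOX1 with 28 bp and an intronic peak of LOC111091367 with 30 bp. Just outside it were peaks that met a healthy peak over 63 bp in STBD1, 69 bp in SH2B2 and 80 bp in LOC607729. A further 63 lymphoma L peaks missed the rule only because the M-H peak they matched met a healthy peak. Of these, 42.9% (31.4 to 55.1) touched a promoter and 33.3% (22.9 to 45.6) had an island flag, above the 27.4% and 13.3% of the loci, while 38.1% had a shore flag. The reverse class, peaks in both healthy lists and neither lymphoma list, held 247 of the 44811 healthy L peaks (0.551%), of which 18 (7.29%) touched a promoter and 17 (6.88%) had an island flag. The healthy M-H list was the shortest of the 4, and its part in this imbalance was not tested.

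At the level of genes, 1912 of the 18148 genes with a recovered transcription start had such a locus at the promoter (10.5%), among them 1352 of the 11410 named protein-coding genes (11.8%). Of the 7238 genes with a promoter peak in any of the 4 lists they made up 26.4%. In 113 of the 1912 genes a healthy peak lay elsewhere within the same promoter window. Of the other genes, 3349 had promoter peaks in both groups and 1273 in the lymphoma lists only, without such a locus. A further 704 had them in the healthy lists only and 10910 in no list.

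The 10 named genes whose promoter loci ranked highest in both lymphoma lists included genes of neurons and of adhesion together with genes of general cell function. Each locus was ranked by the lower of its percentiles within the L and the M-H list. The adhesion gene CDH7, a cadherin of the nervous system, had a fold of 18.96 in L and 21.4 in M-H for an intronic peak across the start on chromosome 1, 11823978 to 11824598 (CanFam3.1, as all positions here). The nearest healthy peak lay 51.5 kb away. SST encodes somatostatin, a peptide that inhibits hormone release and neuronal firing, and its peak spanned the start on chromosome 34, 20064054 to 20064883, with 20.3 in L and 19.9 in M-H. TPH1, the enzyme that starts serotonin synthesis in peripheral tissues, had 20.9 in L and 19.4 in M-H on chromosome 21, 40571397 to 40571991. These peaks fell within the top 5% of both lists.

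The other leading loci lay at genes of several kinds. NEMF, a component of the ribosome quality control pathway, had 20.9 in L and 20.3 in M-H, and its peak lay 954 bp upstream of the start, on chromosome 8, 26412234 to 26412626. MRPL14, a protein of the mitochondrial ribosome, had 19.5 in L and 19.2 in M-H in a CpG island 990 bp upstream on chromosome 12, 12551506 to 12552034. The locus of VGLL3, a cofactor of TEAD transcription factors, lay in a CpG island on chromosome 31, 1036647 to 1037273, with 18.1 in L and 20.5 in M-H. It was assigned by the authors to LOC102152193, whose start is next to that of VGLL3, so the gene it belongs to is uncertain. CCDC38 had 18.5 in L and 19.6 in M-H, the microRNA gene MIR8833 had 17.3 and 20.02, and the sugar phosphate mutase gene PGM2 had 17.2 and 19.8, with the L value first. The CCDC38, MIR8833 and VGLL3 peaks spanned the start, whereas the midpoint of the PGM2 peak lay 770 bp downstream of it.

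**Figure D3:**
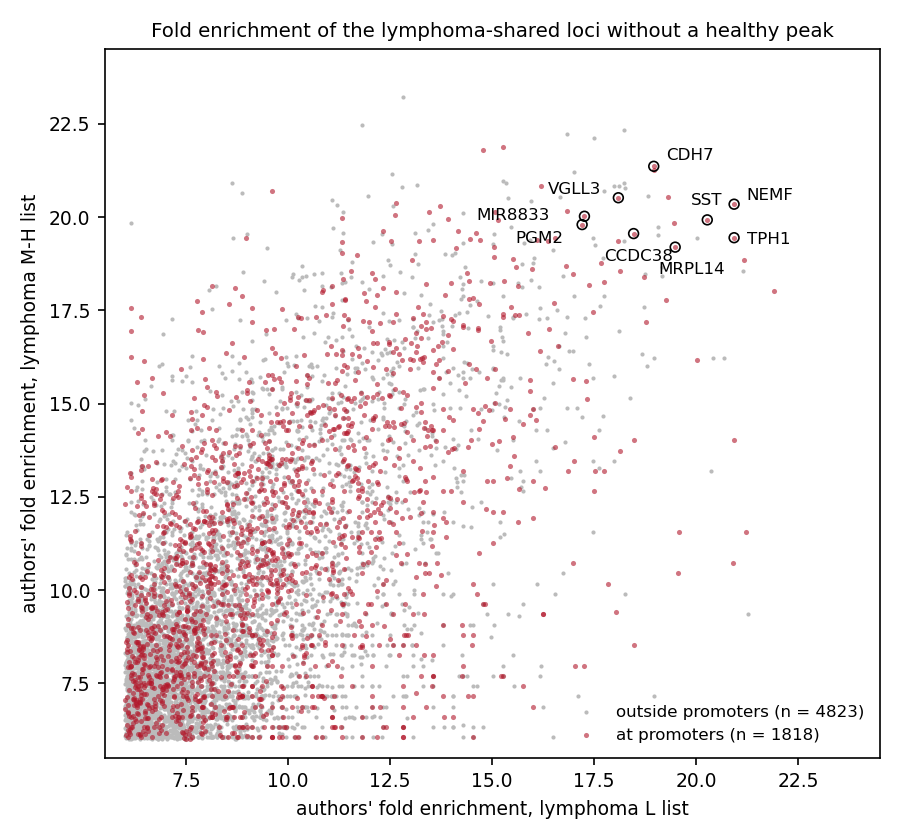
Authors' fold enrichment of the 6641 loci in the lymphoma L list (x axis) and of the matched peak in the lymphoma M-H list (y axis), with promoter loci in red, other loci in grey and 9 of the 10 highest-ranking named promoter loci circled and labelled. Both lists start at a fold of 6, the cloud is densest near that edge, and the labelled loci sit at 17.2 to 20.9 in L and 19.2 to 21.4 in M-H; the horizontal rows of points are repeated values such as 6.05, which 510 M-H peaks share.

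Genes of nerve cell signalling had such promoter loci in a larger share than all genes. The neuropeptide and neurotransmitter receptor list had 33 of 131 measured genes (25.2%, 18.5 to 33.3) with a locus, against 10.5% of all genes. Another 30 had promoter peaks in both groups, against 18.5% of all genes, and 41 had none, against 60.1%. The gene lists were drawn up with earlier results of these data known, and a gene counts as measured if a peak anywhere near it was assigned to it. No test of a list was run, so these shares stand as counts. The share of every list below compares with 10.5% of all genes and 11.8% of named protein-coding genes. Within the list, the division into roles was made after the values were seen. Peptide precursors had a locus in 10 of 25 genes: SST, NPY, GAL, GRP, NMB, CCK, TRH, POMC, CARTPT and NPPC. POMC, the precursor of corticotropin and beta-endorphin, had 16.4 in L and 17.0 in M-H on chromosome 17, 19437652 to 19438422. NMB, the precursor of neuromedin B, had 12.1 in L and 16.0 in M-H. At the low end, CCK, the precursor of cholecystokinin, had 6.07 in L and 9.05 in M-H, and TRH, the precursor of thyrotropin-releasing hormone, had 6.06 in L and 9.53 in M-H.

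Among the receptors, 5 of 24 peptide and opioid receptor genes had a locus, and the highest was OPRM1, the mu opioid receptor, with 17.7 in L and 13.2 in M-H on chromosome 1, 43972595 to 43973389. Its nearest healthy peak was 165 kb away. Metabotropic glutamate receptors, which signal through G proteins, had loci in 4 of 8 genes: GRM2 (10.2 in L and 15.0 in M-H), GRM3 (7.53 and 8.34), GRM4 (6.42 and 7.89) and GRM5 (9.57 and 10.5). Ionotropic glutamate receptors, which are cation channels, had them in 4 of 16 genes, GRIA4, GRIN2B and GRID1 among them. Receptors of the inhibitory transmitters GABA and glycine had them in 5 of 19, among them GLRA1, a glycine receptor subunit, with 17.5 in L and 14.1 in M-H on chromosome 4, 57443169 to 57443992. Among dopamine, serotonin and adrenergic receptors, 4 of 24 had a locus, with HTR1B, a serotonin receptor, at 14.9 in L and 18.2 in M-H and the dopamine receptor DRD2 at 13.2 in L and 16.2 in M-H. The HTR1B peak, on chromosome 12, 38659089 to 38659903, spanned the start although the files annotate it as intergenic. Acetylcholine receptors had 1 of 15, CHRNA7. With 8 to 25 genes in each role, these shares have wide counting error and no order among the roles is drawn.

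Ion channels were the next group. Of 78 potassium channel genes, 23 had a promoter locus (29.5%, 20.5 to 40.4), against 10.5% of all genes. Voltage-gated channels, which repolarise excitable cells, had 12 of 35, among them 6 of the KCNH family: KCNH2, KCNH4, KCNH5, KCNH6, KCNH7 and KCNH8. KCNH8 had 14.4 in L and 19.4 in M-H on chromosome 23, 23984461 to 23985332, in a peak the authors assigned to LOC111091981. KCNH6 had 13.7 in L and 16.5 in M-H, with a healthy peak only 0.537 kb away. KCNQ3, a subunit of the neuronal M-current channel, had 12.4 in L and 14.5 in M-H. Background potassium channels with a paired pore domain had 5 of 13 and inward rectifiers 3 of 11. Auxiliary subunits had 2 of 10 and calcium- or sodium-activated channels 1 of 9. With 9 to 35 genes in each class, these counts have wide counting error and no order among the classes is drawn. With no healthy peak allowed within 5 kb, 14 of the 78 genes had a locus, against 7.76% of all genes. With both lymphoma lists held to a fold of 10 or more there were 8, against 3.31% of all genes, and with equal list lengths 9, against 4.75%.

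Calcium and sodium channels had a locus in 9 of 39 genes (23.1%, 12.6 to 38.3), of which SCNM1 is named like a sodium channel gene but encodes a splicing factor. CACNA1A, the pore-forming subunit of neuronal P/Q-type calcium channels, had 17.3 in L and 15.1 in M-H for an intronic peak on chromosome 20, 48747858 to 48748741, with its midpoint 1212 bp downstream of the start. CACNG6, CACNG7 and CACNG8 encode auxiliary calcium channel or AMPA receptor subunits and stand next to each other on chromosome 1. All 3 had a promoter locus, with 13.3 in L and 14.8 in M-H at CACNG6, 16.1 in L and 14.6 in M-H at CACNG8, and 7.38 in L and 8.52 in M-H at CACNG7. Over the 69.1 kb around them, the lymphoma lists had 6 peaks in L and 5 in M-H, and the healthy lists 1 in L and 1 in M-H. The nearer healthy peak, of the L list with a fold of 12.9, lay 0.735 kb from the CACNG6 locus. It reached into the 1 kb promoter window of CACNG6, so that promoter was not free of healthy peaks.

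Solute carriers, the membrane transporters, had a locus in 42 of 266 genes (15.8%, 11.9 to 20.7). SLC43A1, an amino acid transporter, was highest with 17.7 in L and 18.8 in M-H for an island peak in an intron on chromosome 18, 38653913 to 38654682. SLC45A3 followed with 14.0 in L and 18.2 in M-H, and SLC1A3, the glial glutamate transporter, with 14.0 in L and 17.3 in M-H. Transporters of neurotransmitters in the list included SLC6A2 and SLC6A3, the noradrenaline and dopamine transporters, with 7.50 and 6.73 in L.

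Among secreted signals and their inhibitors, antagonists of WNT signalling had a locus in 9 of 28 genes (32.1%, 17.9 to 50.7). WNT proteins drive growth and cell fate through beta-catenin, and methylation of their antagonists' promoters is common in human cancers. The extracellular antagonists with a locus were SFRP5 (13.4 in L and 12.9 in M-H), SFRP4 (12.1 and 11.8), WIF1 (8.54 and 17.7), DKK1 (6.46 and 7.40) and its receptor partner KREMEN1 (7.26 and 8.50). The intracellular ones were NKD1 (11.3 and 14.6), AXIN2 (6.87 and 8.92), DACT1 (7.50 and 10.8) and DACT2 (6.87 and 12.4). WIF1 stood at a middle rank in L and a high one in M-H, and AXIN2 had a healthy peak 0.193 kb away. The SFRP4 peak, in an island on chromosome 18, 12018168 to 12018950, was assigned by the authors to LOC106559945. Only 16 of the 28 genes had a promoter peak in any list, and the 9 made up 56.3% of those.

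The ligands themselves were also represented, with 14 of 52 WNT, FGF and BMP family genes (26.9%, 16.8 to 40.3). FGF2, a growth factor of many mesenchymal cells, had 12.8 in L and 14.9 in M-H on chromosome 19, 17462364 to 17463141. WNT2B had 11.4 in L and 17.8 in M-H, with a healthy peak 0.475 kb away, and FGF20 had 11.3 in L and 16.3 in M-H. FGF3, FGF4 and FGF19, neighbours on chromosome 18, all had island loci, at 8.40, 7.83 and 7.63 in L. Axon guidance genes, whose products steer growing nerve fibres, had a locus in 15 of 65 (23.1%, 14.5 to 34.6), but mostly of low rank: SEMA6D had 9.66 in L and 10.8 in M-H, SLIT1 8.49 and 12.3, and PLXNC1 7.91 and 16.9. When both lymphoma lists were held to a fold of 10 or more, 0 of the 65 had a locus, against 3.31% of all genes, and with equal list lengths 2 did, against 4.75% of all genes. At both settings the share thus no longer stood above that of all genes.

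Collagens, the structural proteins of connective tissue, had the highest share of the 25 lists, with 13 of 37 genes (35.1%, 21.8 to 51.2). COL5A3 had 16.8 in L and 20.2 in M-H on chromosome 20, 51037430 to 51038354, in a peak the authors assigned to the neighbouring RDH8. COL4A3 and COL4A4, basement membrane collagens transcribed in opposite directions, shared 1 peak with 15.3 in L and 18.3 in M-H on chromosome 25, 39975316 to 39976183, so the 13 genes stand for 12 loci. COL6A5, with 19.6 in L, was highest by L alone but had 10.4 in M-H. Cadherins had 5 of 33 genes (15.2%, 6.65 to 30.9), an interval that holds the 10.5% of all genes. CDH1, the epithelial cadherin, had 10.7 in L and 12.4 in M-H on chromosome 5, 80833709 to 80834908, and CDH10 had 9.60 and 15.4.

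**Figure D4:**
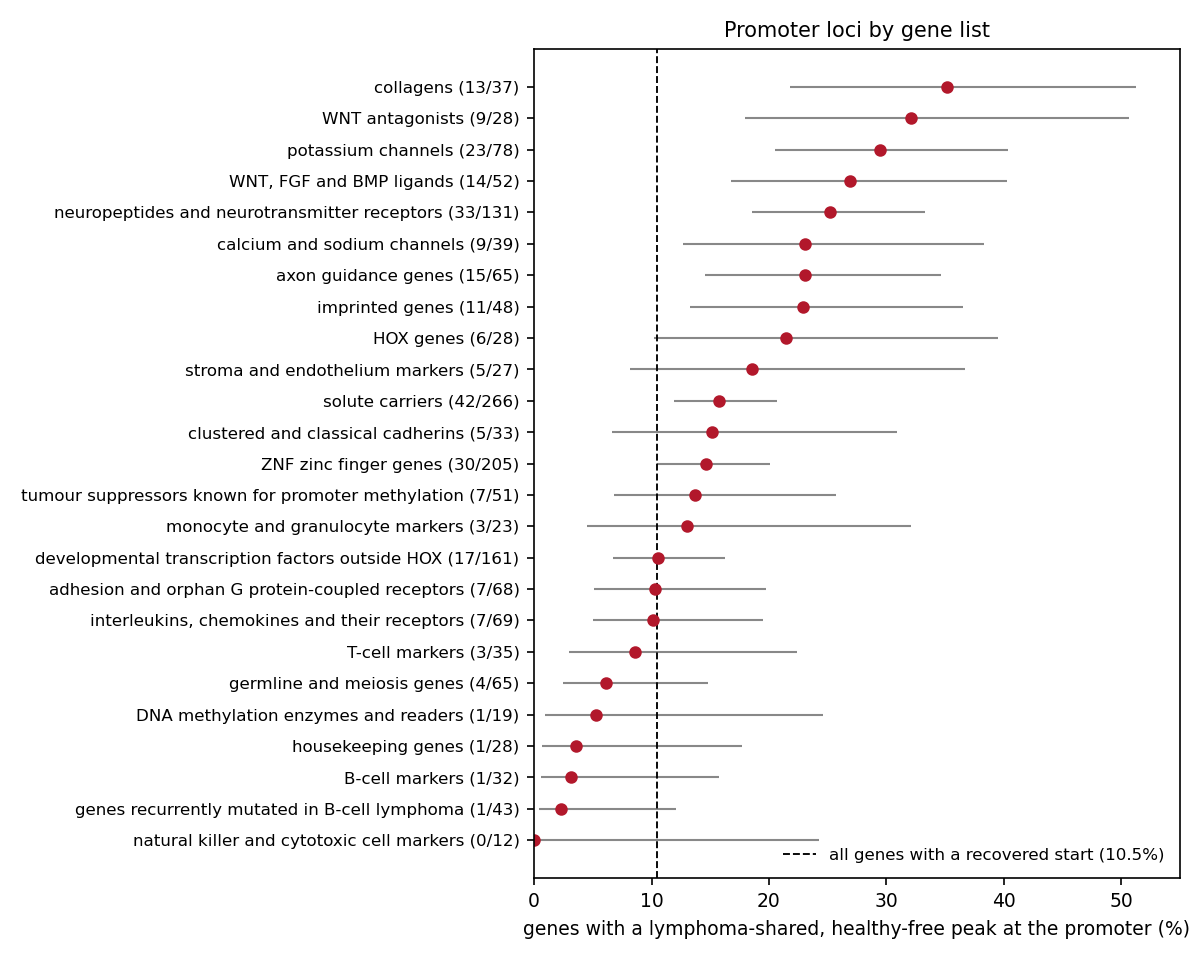
Share of measured genes (%) with a locus in both lymphoma lists and no healthy list at the promoter, by gene list, with the number of genes with a locus and the number measured; lines are 95% Wilson intervals over genes, and the dashed line marks the 10.5% of all genes. Collagens (35.1%), WNT antagonists (32.1%) and potassium channels (29.5%) stand highest, and B-cell markers (3.13%), genes recurrently mutated in B-cell lymphoma (2.33%) and natural killer markers (0 of 12) lowest.

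HOX genes, which set position along the body axis, had a promoter locus in 6 of 28 (21.4%, 10.2 to 39.5), all of modest enrichment in L. HOXD9 had 9.40 in L and 12.7 in M-H, HOXB13 8.90 and 13.0, and HOXA13 7.95 and 10.3. HOXA11, HOXB8 and HOXD8 had 6.13, 6.36 and 7.69 in L. Holding both lymphoma lists to a fold of 10 or more left 0 of the 28, against 3.31% of all genes, and equal list lengths also left 0, against 4.75%; with 28 genes these counts are near the share of all genes. Other developmental transcription factors had 17 of 161 (10.6%, 6.70 to 16.3), near the 10.5% of all genes and the 11.8% of named protein-coding genes. PRRX2, a homeobox factor of mesenchyme, stood apart with 17.0 in L and 15.7 in M-H for an island peak on chromosome 9, 54112554 to 54113438. DMRTA1 had 11.3 in L and 11.9 in M-H, and NEUROG1, which specifies neurons, had 10.0 in L and 14.5 in M-H. A further 39 of the 161 factors had a lymphoma promoter peak and no healthy one but did not meet the rule. Of all genes, 7.01% were in this state, so the share meeting the rule does not describe all lymphoma-only peaks of this list. ZNF zinc finger genes had 30 of 205 (14.6%, 10.4 to 20.1), an interval that holds the 11.8% of named protein-coding genes. ZNF510 (16.5 in L and 17.7 in M-H), ZNF114 (14.7 and 17.0) and ZNF846 (13.4 and 17.2) ranked highest.

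At the posterior end of the HOXA cluster the loci formed a run. Where neighbouring loci lay no more than 20 kb apart they were joined; this gave 5520 runs, of which 4633 were single loci, and 2008 loci stood in the 887 runs of 2 or more. Just 2 runs held 7 loci. On chromosome 14, 40359085 to 40428225, which takes in HOXA11, HOXA13 and EVX1, a homeobox gene beside the cluster, 7 loci were accompanied by 9 lymphoma L and 11 lymphoma M-H peaks in all, against 4 healthy L peaks and 0 healthy M-H peaks. The 7 loci had fold values of 6.13 to 15.4 in L and 9.38 to 20.5 in M-H. At the other end of the cluster, around HOXA2, HOXA3 and HOXA4, no locus met the rule. The second run of 7 lay in SHANK2, a scaffold protein of excitatory synapses, on chromosome 18, 47648586 to 47718808, with 8 lymphoma peaks in each list against 1 healthy L peak and 0 healthy M-H peaks; its loci had 6.34 to 10.8 in L.

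**Figure D5:**
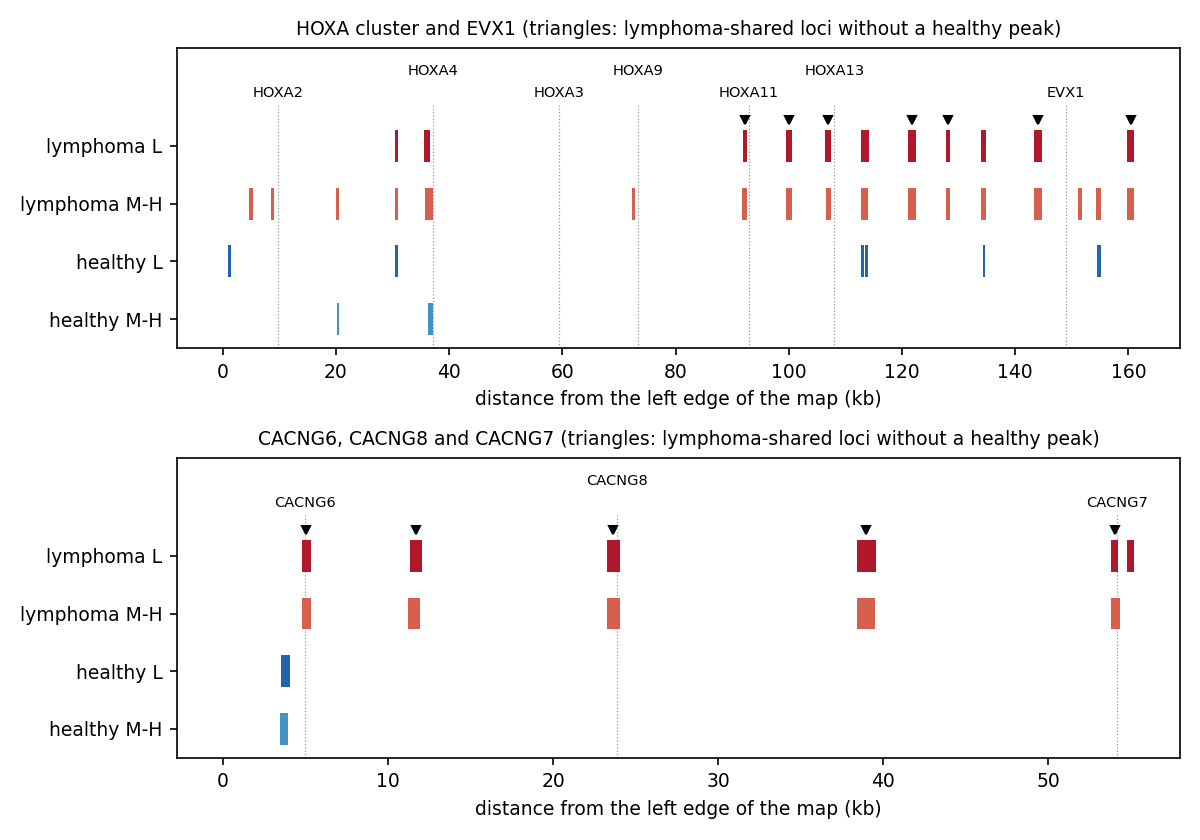
Peaks of the lymphoma L, lymphoma M-H, healthy L and healthy M-H lists along the HOXA cluster with EVX1 (upper map) and along CACNG6, CACNG8 and CACNG7 (lower map), by distance from the left edge of the map in kb; triangles mark loci in both lymphoma lists and no healthy list, dotted lines the recovered starts of the labelled genes. The 7 HOXA loci lie between HOXA11 and the far side of EVX1, and the 5 CACNG loci lie at and between the 3 genes.

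Of the runs of 5 loci, those with the widest span covered DES and SPEG, genes of muscle, on chromosome 37 (69.8 kb), SRRM3, a neuronal splicing regulator, on chromosome 6 (52.2 kb), and MMP17, SFSWAP and ULK1 on chromosome 26 (51.2 kb). The SRRM3 run had 5 peaks in each lymphoma list and 0 in each healthy list, and its loci reached 21.2 in L. At DES the healthy lists had 2 L peaks and 5 M-H peaks within the run, so that run was not free of healthy peaks. Within genes, SHANK2 held the most loci, 16 of its 31 lymphoma L peaks, 15 of them in introns. NTM, an adhesion protein of neurons, held 11 of 36, PRKG1, a cGMP-dependent kinase, 11 of 32, AGAP1 10 of 26 and GSE1 10 of 25. For NTM and PRKG1 the healthy L list had 30 and 32 peaks of its own. In all, 4827 loci were assigned to 3829 genes, and 32 genes held 5 or more.

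In islands, the loci ranking highest in both lists were a peak across the start of LOC111091421 on chromosome 20 (19.3 in L and 20.5 in M-H), the peak across the starts of LOC102152193 and VGLL3 described above, and a peak between genes on chromosome 20, 51926817 to 51927338 (17.5 and 19.4). In introns away from promoters, CREB5, a CRE-binding transcription factor, had 18.1 in L and 20.8 in M-H on chromosome 14, 41412762 to 41413363, with its midpoint 16046 bp from the nearest start. GRAP2, an adaptor of T-cell receptor signalling, had 17.0 in L and 21.2 in M-H on chromosome 10, 25202067 to 25202677, and an intronic locus of LOC111093473 had 17.5 and 19.3. Between genes and away from promoters, loci on chromosome 36, 30721402 to 30722031, on chromosome 5, 43020979 to 43021523, and on chromosome 25, 32407308 to 32408067, had 18.2 to 18.8 in L and 20.6 to 20.9 in M-H. By chromosome, the loci made up between 10.9% of the lymphoma L peaks on chromosome 22 and 18.6% (15.1 to 22.7) on chromosome 38, and 11.4% (10.1 to 12.8) on X.

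Tumour suppressors known for promoter methylation in human cancers had a locus in 7 of 51 genes (13.7%, 6.81 to 25.7): CDH1, RARB, DAPK1, OPCML, LOX, CCNA1 and NEUROG1. The interval holds the 10.5% of all genes and the 11.8% of named protein-coding genes, so this list was near the general share. NEUROG1 specifies neurons and was also counted among the developmental factors, as CDH1 was among the cadherins. RARB, a retinoic acid receptor, had 8.20 in L and 13.1 in M-H on chromosome 23, 18930228 to 18931510, with the nearest healthy peak 135 kb away. DAPK1, a pro-apoptotic kinase, had 7.54 in L and 9.02 in M-H. Imprinted genes, expressed mainly from the copy of a single parent, had 11 of 48 (22.9%, 13.3 to 36.5), led by ZDBF2 (12.7 in L and 12.4 in M-H), PPP1R9A (9.36 and 11.3) and ZAR1 (8.22 and 15.3); PEG10 and SGCE shared 1 peak. With equal list lengths 1 of these 48 had a locus, against 4.75% of all genes. Germline and meiosis genes had 4 of 65 (6.15%), RAD21L1, NLRP14, SPAG16 and SYCP3. Their promoters had peaks in both groups in 44 of the 65, against 18.5% of all genes. A methylated promoter is the state known for such genes in somatic cells. Adhesion and orphan G protein-coupled receptors had 7 of 68 (10.3%), near the 10.5% of all genes. Among them were ADGRA2 (11.1 in L and 12.4 in M-H) and GPR176 (12.3 and 12.1).

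Among genes of B cells and of B-cell lymphoma, a single gene in each list had such a locus, and the 10.5% of all genes lies within both intervals. Of 43 measured genes recurrently mutated in B-cell lymphoma, 1 had a locus (2.33%, 0.412 to 12.1), the kinase SGK1. It had 9.85 in L and 6.05 in M-H, close to the lower limit of the M-H list. No promoter peak in any list was found for 39 of the 43, against 60.1% of all genes. Of 32 B-cell markers, 1 had a locus (3.13%, 0.554 to 15.7), CD38, an ectoenzyme found on activated lymphocytes, with 13.5 in L and 17.0 in M-H on chromosome 3, 64576151 to 64577214, in coding sequence 1073 bp downstream of the start. With a promoter window of 500 bp either side, 0 of the 32 had a locus, against 8.92% of all genes. Promoters of B-cell markers with a peak numbered 3 in each lymphoma list, against 4 in healthy L and 3 in healthy M-H; PAX5, EBF1 and CD79B had none in any list. Housekeeping genes had 1 of 28 (3.57%), REEP5, and DNA methylation enzymes and readers 1 of 19 (5.26%), the demethylating enzyme TET1, with 9.83 in L and 15.6 in M-H. The TET1 peak was annotated as an intron of LOC106558703, its midpoint lay 1367 bp downstream of the start and a healthy peak lay 4.64 kb away.

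Markers of other cell types, like genes in general, had more promoter peaks in the lymphoma lists than in the healthy lists. Of all genes, 31.5% had a promoter peak in lymphoma L and 28.9% in lymphoma M-H, against 19.4% in healthy L and 10.9% in healthy M-H, so the counts below are not particular to the markers. T-cell markers had promoter peaks in 10 of 35 genes in lymphoma L and 11 in lymphoma M-H, against 4 in healthy L and 3 in healthy M-H. The rule was met by 3 of them (8.57%, 2.96 to 22.4), against 10.5% of all genes: CD8A, CD8B and LAG3. CD8A, a coreceptor of cytotoxic T cells, had 10.5 in L and 14.7 in M-H, and the inhibitory receptor LAG3 had 9.49 and 15.8. CD8B had 10.2 in L and 6.05 in M-H, close to the lower limit of the M-H list, with a healthy peak 2.63 kb away. Monocyte and granulocyte markers had promoter peaks in 7 of 23 genes in lymphoma L and 6 in lymphoma M-H, against 4 in healthy L and 3 in healthy M-H. Of the 23, 3 met the rule (13.0%, 4.54 to 32.1), an interval that holds the 10.5% of all genes. CD14, the lipopolysaccharide coreceptor of monocytes, had 9.16 in L and 9.75 in M-H, and C5AR1 had 7.88 and 11.1. FCGR1A had 10.2 and 15.2, in a peak assigned to a neighbouring transfer RNA gene. Stroma and endothelium markers had promoter peaks in 11 of 27 genes in lymphoma L and 12 in lymphoma M-H. The healthy lists had 5 in L and 3 in M-H. The rule was met by 5 of the 27 (18.5%, 8.18 to 36.7), an interval that holds the 10.5% of all genes. They were ENG (13.3 in L and 15.0 in M-H), FLT4 (10.4 and 16.3), COL1A2 (8.37 and 9.90), FLT1 and DES. COL1A2 was also counted among the collagens. With no healthy peak allowed within 5 kb, 2 of the 27 had a locus, against 7.76% of all genes. Natural killer markers had 2 of 12 promoters with a peak in lymphoma L and 1 in lymphoma M-H, against 0 in either healthy list. The rule was met by 0 of the 12. All these counts leave out markers that were not measured. Measured were 35 of 47 T-cell, 23 of 52 monocyte and granulocyte, 27 of 40 stroma and endothelium, and 12 of 30 natural killer markers. Interleukins, chemokines and their receptors had 7 of 69 (10.1%), near the 10.5% of all genes. All 7 were receptors or receptor-like, led by IL31RA (12.5 in L and 16.7 in M-H), IL17RC (11.3 and 17.1) and IL18R1 (11.2 and 14.7). T cells and monocytes are main cell types of blood mononuclear cells; the part of cell mix in these loci was not tested.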

How the data were processed

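DNA captured by MethylCap-seq was sequenced as paired ends from 16 libraries, per the labels' protocols. The submitters' processing notes name BWA, MACS2 and, as build, CanFam3.1, with no roles or settings. The authors deposited 4 peak lists, each combining the dogs of a group; how they were combined was not given in the sources used here. Per the file headers each peak has a position, a fold enrichment (a linear ratio), an assigned gene, its distance to the transcription start and flags for islands, shores and enhancers. Neither read counts nor p-values are used here, and depth is unknown.

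The members and the gene lists were chosen with earlier results of these data known. Peak starts were read as 0-based and are printed 1-based. Spreadsheet dates in 54 gene symbols of the lymphoma L list were restored from the gene description, and 4, 2 and 3 rows with shifted gene columns (lymphoma L, healthy L, lymphoma M-H) were kept without a gene. Transcription starts were obtained from the positions and distances of the peaks, which gave 1 start for 18112 of 18148 symbols. Promoter loci were matched to genes by these starts, and the gene assigned by the authors could differ. At CACNG8, SLC45A3, HOXA13, GPR176 and SPAG16, among others, the authors assigned the peak to a LOC symbol. Biotypes came from a RefSeq table of the assembly UU_Cfam_GSD_1.0, matched by symbol for 15838, with no coordinate taken from it. Sequences are not used here.

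Named genes are the 10 named promoter loci and up to 3 per gene list with the highest lower percentile of the 2 lymphoma lists, the 3 highest in islands, introns and intergenic regions, the 5 genes and 5 runs with the most loci, and the 3 loci nearest to a healthy peak. Other genes were named after their values were seen, to account for the members of a list. Some genes that meet this rule are not reported here. Alternatives covered the overlap, the window of absence, the fold threshold, list length, the promoter window and the island definition. Python 3.11.15, numpy 2.4.6, pandas 2.3.3, scipy 1.17.1 and matplotlib 3.10.9 were used, and the overlap steps were tested on simulated data.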

Additional observations from a re-analysis of the deposited data

How the results depend on the processing

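The rule was recomputed under other settings, with no test in any of them. With an overlap of at least 0.5 of the shorter peak there were 6638 loci, with a single clean M-H peak required 6642, and with no healthy peak within 1 kb 6189. With none within 5 kb there were 4952 loci, of which 12.4% lay in islands. A fold of at least 8 in both lymphoma lists left 2760 loci, 36.9% at promoters, 15.7% in islands and 1100 genes; at least 10 left 1283 loci, 43.6% at promoters, 15.7% in islands and 601 genes. A fold of at least 8 in all 4 lists gave 23.6% at promoters and 9.43% in islands. Lists of equal length were cut at a fold of 9.58 in lymphoma L, 9.32 in lymphoma M-H and 8.18 in healthy L, with healthy M-H kept whole. They gave 2423 loci, 33.2% at promoters, 12.1% in islands and 862 genes. Healthy L peaks below 8.18 did not count there, so loci that meet such a peak could enter. A promoter of 500 bp either side held 23.1% of the loci, and islands or shores together 66.6%. Across 10 alternative settings, 9 gene lists stayed above the share of all genes (neuropeptides and receptors, WNT antagonists, cadherins, potassium channels, calcium and sodium channels, solute carriers, ZNF genes, collagens, and WNT, FGF and BMP ligands), and 4 stayed below it (lymphoma-mutated genes, B-cell markers, natural killer markers and housekeeping genes). The other 12 changed side in at least 1 setting: adhesion and orphan receptors and interleukins in 6 each, developmental transcription factors in 5, axon guidance genes in 4, HOX, imprinted and germline genes in 3 each, T-cell markers in 2, and tumour suppressors, monocyte markers, stroma markers and DNA methylation enzymes in 1 each. The causes were not tested. The 4 lists that stayed below had at most 3 genes with a locus in any setting, and natural killer markers 0 of 12 throughout. With counts this low, staying below is little sign of a stable result. The settings with 6638 and 6642 loci also hardly changed the set. Sides were taken against the share of all genes only, not that of named protein-coding genes. No paired analysis was possible because each group has 1 pooled list whose columns carry no replicate; for the same reason no dog could be left out. Depth is unknown, so the lowest fold of 6 cannot be turned into a number of reads.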

Other observations

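Transfer RNA genes, looked at after their values were seen, had loci at 32 of 119 recovered starts (26.9%), against 10.5% of all 18230 starts. They stand for 22 of 41 symbols, since a symbol covers several copies, and reads from near-identical copies can be split between them. Many of them lay in clusters on chromosomes 17 and 35. Of the highest, TRNAQ-CUG had a fold of 15.4 in L on chromosome 17 and TRNAS-AGA 14.9 on chromosome 35. By gene class, the share with a promoter locus was 11.8% of named protein-coding genes, 8.26% of protein-coding genes with a LOC symbol, 7.29% of 3456 long noncoding RNA genes and 6.71% of 164 microRNA genes.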
